A study of Mus musculus with 20 samples.

Results

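The Myf5 and Myf6 locus is described here through the accessible elements around these linked genes in C2C12, an established line of mouse myoblasts that form myotubes in culture. Its members are the ATAC-seq peaks of all 20 deposited lists that lie within 150 kb of the joint span of Myf5 and Myf6 (GRCm38, chromosome 10, 107482908 to 107494723). These 86 peaks of 787806 were grouped, where they shared at least 1 bp, into 13 elements, out of 101352 regions made in the same way over the genome. The elements are numbered 1 to 13 by position, and distances are given from the start of Myf5 in the RefSeq promoter table, position 107486134.

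Myf5 and Myf6 encode basic helix-loop-helix transcription factors of the myogenic family, whose other members are Myod1 and Myog. Myf5 is known for its early role in the embryo and in proliferating myoblasts, and Myf6, also named Mrf4 or herculin, for its expression in maturing muscle fibres. The genes lie head to tail, with Myf6 upstream of Myf5, and their enhancers are known to be spread over a long stretch upstream of both.

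In ATAC-seq a transposase cuts accessible DNA and tags it for sequencing, and each library has its own list of peaks. The WT groups were C2C12 cells at day 0 (D0), at day 1 (D1) and at day 5 (D5), the later days either in CTL (control) or in MR (methionine-restricted) conditions. The KO groups were lines of the same cells without Setd2, whose product trimethylates lysine 36 of histone H3 with a methyl donor made from methionine, and they were taken at the same days and media. Each of the 10 groups held 2 libraries: replicates 1 and 2 in WT, and line 1 and line 2 in KO. Nothing in the labels says that the WT replicates came from separate cultures, so p-values measure the spread between these samples, which may be technical. How the KO lines were made or whether each is 1 clone is not given in the sources used here.

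The lists held 20847 to 69881 peaks in 18 libraries, and 644 (CTL) and 1881 (MR) in the D5 libraries of KO line 1, where the lowest fold enrichment in the list was 4.11 and 3.54. These 2 lists had no call in the window, so KO at D5 rests on line 2. Of the myoblast and muscle markers, Des and Cdh15 had a gene-end peak (at most 1 kb from either end of the gene) in 18 libraries and Myod1 in 17, while Acta1 had one in 9, Myog in 8, Ckm in 5, and Myf5 and Pax7 in none. Of 8 markers of other cell types, Pecam1, Cdh5, Ptprc, Epcam, Cdh1 and Adipoq had none in any library, Cd68 had one in 13 and Pparg in 17. The sequencing depth behind a missing call is unknown, and a missing call does not show closed chromatin.

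The promoters of Myf5 and Myog are shown because the lists differ over the 250 bases before the start. These bases overlapped a peak in 0 of 20 libraries for Myf5. For Myog, the family member that drives terminal differentiation, they overlapped a peak in 8. The difference depends on this narrow window. At 1 kb or less from the same starts, 9 libraries held a peak for Myf5, inside the gene, and 8 for Myog. Sequences are from RefSeq (GRCm38.p6), 5′ to 3′ on the gene's own strand, with motif matches in capitals. The first lies at chr10:107486135-107486384 (minus strand) and the second at chr1:134289754-134290003 (plus strand).
Myf5: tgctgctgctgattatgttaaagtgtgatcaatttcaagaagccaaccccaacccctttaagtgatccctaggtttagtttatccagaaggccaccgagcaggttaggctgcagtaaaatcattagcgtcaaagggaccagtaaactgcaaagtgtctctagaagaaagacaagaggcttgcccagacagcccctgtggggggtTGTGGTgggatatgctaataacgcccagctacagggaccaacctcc
Myog: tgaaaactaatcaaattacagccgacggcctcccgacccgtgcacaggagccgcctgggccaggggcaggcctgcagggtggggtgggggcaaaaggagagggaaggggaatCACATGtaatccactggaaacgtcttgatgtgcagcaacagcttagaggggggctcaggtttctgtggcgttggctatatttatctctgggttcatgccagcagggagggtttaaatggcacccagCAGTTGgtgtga

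The motifs named here were searched on both strands, and CAGCTG matches are also CANNTG matches. CANNTG, the E-box that basic helix-loop-helix factors bind, had 0 matches in the Myf5 sequence and 2 in the Myog sequence, and 66.2% of 32851 promoter windows of this length hold one. TGTGGT, a RUNX motif, had 1 match in Myf5, starting 46 bases before the start (position −46), and 14% of windows hold it. CAGCTG (a form of the E-box, held by 13% of windows), TGANTCA (AP-1, 6.75%) and GGAATG (TEAD, 12.6%) had 0 matches in either. These matches describe the letters of the windows only.

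The 13 elements were short and their peaks were weak within their lists. They measured 59 to 361 bp, with a median of 146 bp against 172 bp over all regions. The percentile of a peak is the percent of peaks of its own list with a −log10 q-value no higher, with tied peaks at their mean rank, so that 100 is the strongest. The 86 peaks lay between percentiles 0.147 and 75.7 with a median of 29.1, and 72.1% of them were in the weaker part of their list, below percentile 50. The number of libraries with a call ran from 1 to 13 per element, with a median of 8 against 5 over all regions. None of the 13 was called in all 18 libraries of usual list length, as 11% of all regions were.

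**Figure D1:**
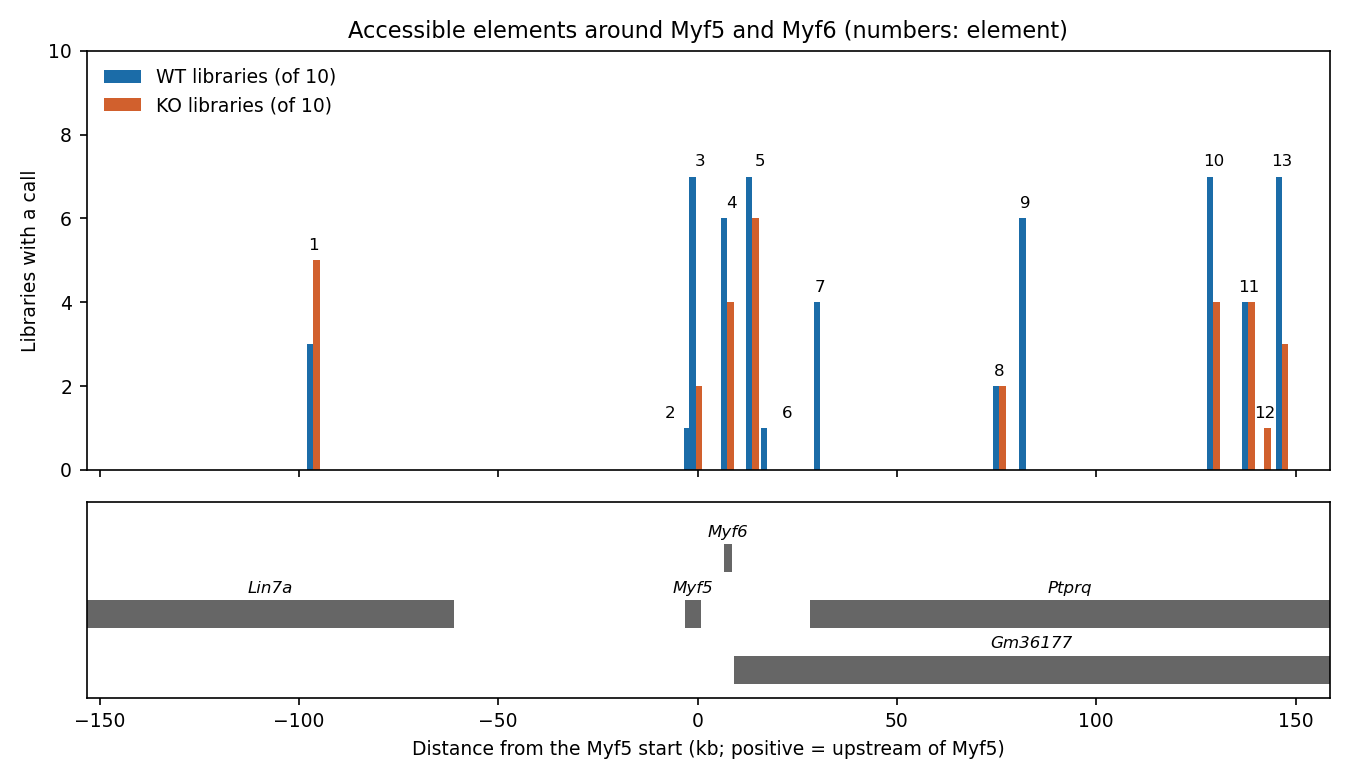
Upper panel: number of WT and KO libraries (10 each) with a call at each of the 13 elements, placed by distance from the Myf5 start in kb. Lower panel: extent of the annotated genes. Most elements lie upstream of Myf5, and elements 2, 6, 7 and 9 have bars for WT only.

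Elements 2 and 3 lie within Myf5, element 4 within Myf6, and element 1 within Lin7a, a neighbouring gene for a scaffold protein. Elements 5 to 13 overlap the long noncoding RNA gene Gm36177, and elements 7 to 13 also Ptprq, the gene of a receptor-type phosphatase on the far side of Myf6. The gene table gives extents only, so exons, introns and UTRs were not told apart. Between elements 1 and 2 lay 94270 bp with no peak in any list.

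Element 3 (chromosome 10, 107485479 to 107485818), the only recurrent element within Myf5, began 316 bp inside the gene from its start. WT libraries held it in 7 of 10 cases and KO libraries in 2 of 10. Its percentiles were 54.6 and 46.3 in WT D0, 59.3 and 33.7 in WT D1 CTL, and 60.0 and 70.1 in WT D1 MR. In KO it was called in line 1 only, at percentile 18.7 at D0 and 7.44 at D1 CTL, and at WT D5 it was called in CTL replicate 2 alone, at percentile 1.16. All 6 WT libraries of D0 and D1 thus held it, mostly near the middle of the list or above, and the calls elsewhere were few and weak.

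This element is absent from counts made at gene ends, because the upper end of Myf5 in the gene table lies 793 bp beyond the start in the promoter table. Element 3 is 1109 bp from that end, and Myf5 had a gene-end peak in 0 libraries. Measured from the start in the promoter table, 9 libraries held a peak at 1 kb or less. Element 2 (107484141 to 107484286), also within Myf5, was called in WT D1 MR replicate 1 alone, at percentile 0.147.

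Element 4 (107493418 to 107493778), within Myf6, was called in 6 WT and 4 KO libraries. Its percentiles were 61.5 and 26.9 in WT D0, 44.7 in WT D1 CTL replicate 1, 58.3 and 44.6 in WT D1 MR, and 10.8 in WT D5 MR replicate 2. In KO line 1 they were 15.6 at D0, 22.4 at D1 CTL and 16.4 at D1 MR, and in line 2 it was called at D1 CTL alone, at 15.8. The WT calls of D0 and D1 were thus all at higher percentiles than the KO calls, in lists of different length. A second measure was the percent of 11144 shared regions, called in all 18 libraries of usual list length, that were weaker in the same library. By it the values overlapped, with WT D0 replicate 2 at 0.368 and KO D1 MR line 1 at 0.422. The other WT calls of D0 and D1 were at 1.69 to 18 and the other KO calls at 0.0987 to 0.314.

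**Figure D2:**
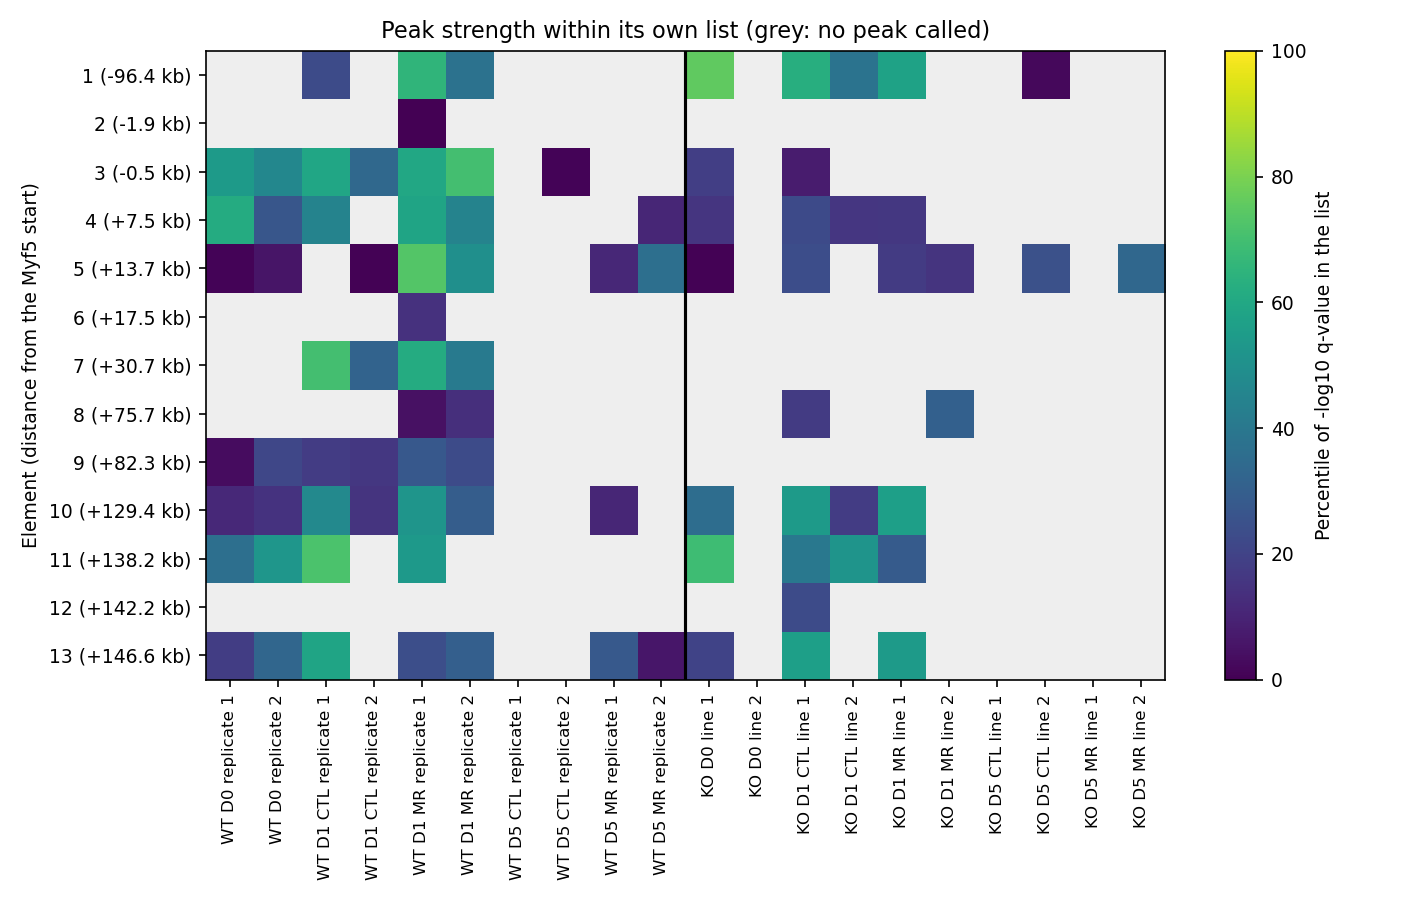
Percentile of the strongest peak of each element (rows, with distance from the Myf5 start in kb) within the list of each of the 20 libraries (columns, WT left of the line and KO right). Grey marks no call. The WT columns of D0 and D1 hold 5 to 12 of the 13 elements, while both WT D5 CTL columns hold 1 call in all and KO line 2 holds 0 to 4 elements per library.

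Element 5 (107499748 to 107499954), 13.7 kb upstream of the Myf5 start and 5.1 kb beyond Myf6, was called in the most libraries, 13. In WT its percentiles were 0.985 and 5.72 at D0, 0.531 in D1 CTL replicate 2, 73.1 and 49.8 in D1 MR, and 11.1 and 36.6 in D5 MR. In KO line 1 they were 0.628 at D0, 23.8 at D1 CTL and 17.2 at D1 MR, and in line 2 they were 15.2 at D1 MR, 24.8 at D5 CTL and 33.3 at D5 MR. It was the only element that line 2 held at D5 in both media.

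Element 7 (107516768 to 107516900), 30.7 kb upstream, was called in the 4 WT libraries of D1 and in no other library. Its percentiles were 70.2 and 32 in CTL and 61.4 and 41.0 in MR. It was thus absent from the lists of WT D0, of WT D5 and of all KO libraries, and its peaks were not at the weak end of the D1 lists. Of all regions, 4.69% were called in both WT D1 CTL libraries and neither WT D0 library, as element 7 was, alone of the 13.

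Element 9 (107568377 to 107568482), 82.3 kb upstream, was called in all 6 WT libraries of D0 and D1, in 0 of 4 WT D5 libraries and in 0 of 10 KO libraries. The percentiles were low: 3.41 and 21.3 in WT D0, 17.7 and 16.3 in D1 CTL, and 27.4 and 22.7 in D1 MR. Element 8 (107561806 to 107561926), 75.7 kb upstream, was called in both WT D1 MR libraries, in KO line 1 at D1 CTL and in KO line 2 at D1 MR, at percentiles 4.54 and 13.3, 17.2, and 30.5. It was the 1 element called in both WT D1 MR and neither WT D1 CTL library, a pattern of 7.73% of all regions.

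Farther out, elements 10 (107615419 to 107615719), 11 (107624287 to 107624403) and 13 (107632640 to 107632802) lay 129.4, 138.2 and 146.6 kb upstream. Element 10 was called in 7 WT and 4 KO libraries, at percentiles of 11.7 and 14.8 in WT D0, 47.1 and 15.2 in WT D1 CTL, 52.1 and 29.3 in WT D1 MR, and 10.7 in WT D5 MR replicate 1. In KO line 1 it had percentiles of 35.6 at D0, 54.4 at D1 CTL and 56.4 at D1 MR, and in line 2 17.6 at D1 CTL. In each of these 3 conditions the percentile of KO line 1 was above those of both WT libraries, in lists of different length. As the percent of the 11144 shared regions that were weaker, this held at D0 and D1 MR but not at D1 CTL. There KO line 1 was at 2.67, WT replicate 1 at 4.13 and WT replicate 2 at 0.503.

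Element 11 was called in 4 WT and 4 KO libraries and in no D5 library. Its percentiles were 36.7 and 52.4 in WT D0, 71.8 in WT D1 CTL replicate 1 and 53.9 in WT D1 MR replicate 1. In KO line 1 they were 68.8 at D0, 39.9 at D1 CTL and 28.9 at D1 MR, and in line 2 51.9 at D1 CTL. The WT and KO percentiles of element 11 thus overlapped.

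Element 13 was called in 7 WT libraries and in the 3 libraries of KO line 1 at D0 and D1, and not in line 2. In WT its percentiles were 18 and 33.1 at D0, 58.4 in D1 CTL replicate 1, 24.2 and 30.2 in D1 MR, and 28.0 and 6.10 in D5 MR. In KO line 1 they were 20.1 at D0, 56.3 at D1 CTL and 54.3 at D1 MR, within the range of the WT values pooled over conditions. At D1 MR alone the value of line 1 was above those of both WT libraries, in lists of different length. Element 12 (107628249 to 107628336) was called in KO line 1 at D1 CTL alone and element 6 (107503566 to 107503624) in WT D1 MR replicate 1 alone, at percentiles of 22.8 and 14.1. On the other side of the genes, element 1 (107389678 to 107389870), 96.4 kb downstream, was called in 3 WT and 5 KO libraries and held the strongest peak of the window within its list, at percentile 75.7 in KO D0 line 1. Its other KO percentiles were 62.8 and 57.8 in line 1 at D1 CTL and D1 MR, and 38.0 and 2.0 in line 2 at D1 CTL and D5 CTL. In WT it had 22.7 in D1 CTL replicate 1, and 65.6 and 37.8 in D1 MR.

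Whether loss of Setd2 went with fewer calls was tested for each region over the 5 conditions. Genotype labels were permuted within each condition in all 7776 ways. The KO libraries of every condition come from the same lines, whose differences correlated between conditions at D0 and D1. The permutation treats these libraries as separate samples, so its p-values do not measure the spread between KO lines. Element 9 was called less often in KO, by a mean of 0.6 of the libraries (exact permutation p = 0.00926, Benjamini-Hochberg adjusted p = 0.0493 over 18700 regions). It was the 1 element of 4 testable that passed the threshold of 0.05, and 0 were called more often in KO. Over all tested regions, 16.1% were called less often in KO and 2.73% more often. The adjusted p of element 9 was 0.0504 without the D5 libraries of KO line 1, and the element was in no list once a −log10 q-value of at least 5 was asked for.

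For element 3 the difference was −0.5, which did not pass (exact permutation p = 0.0417, adjusted 0.0820). For element 7 the difference was −0.4, and its calls in only 2 conditions allow no p below 0.0556. Within conditions, element 9 was called in both WT D0 and neither KO D0 library, as 3.77% of all regions were. At D1 CTL elements 7 and 9 were in both WT and neither KO library (5.06% of all regions), and at D1 MR elements 3, 7 and 9 (13.9%). With 2 libraries against 2, no two-sided exact p can be below 0.333. Over the 13 elements the difference was below 0 for 9, above 0 for 2 and 0 for 2, with a median of −0.1, which was also the median over all regions.

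The KO lines differed in this window. At D0 and D1 line 1 held 22 of 39 possible calls (56.4%) and line 2 held 6 of 39 (15.4%), against 48 of 78 (61.5%) in WT. Over all regions the shares in the same libraries were 55.6%, 35.1% and 50.9%. At D0 line 1 held 7 elements and line 2 held 0, in lists of 63530 and 30629 peaks. Chromosome 10 made up 4.82% to 4.99% of the peaks of line 2, against 5.45% to 5.47% in line 1 at D0 and D1 and 5.44% to 5.71% in WT. Among 11144 regions called in all 18 longer lists, the 574 on chromosome 10 ranked lower than in WT of the same condition in all 8 KO libraries with such lists, by a median of −6.76 to −2.04 percentile points. The 17 such regions within 5 Mb of the locus did not all share this: their median shift was −10.7 to −3.16 in 5 of the 8 libraries and 1.83, 7.79 and 8.30 in KO D1 CTL line 1, KO D5 CTL line 2 and KO D5 MR line 2. The part of the chromosome and of the list length in the KO values was not tested.

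**Figure D3:**
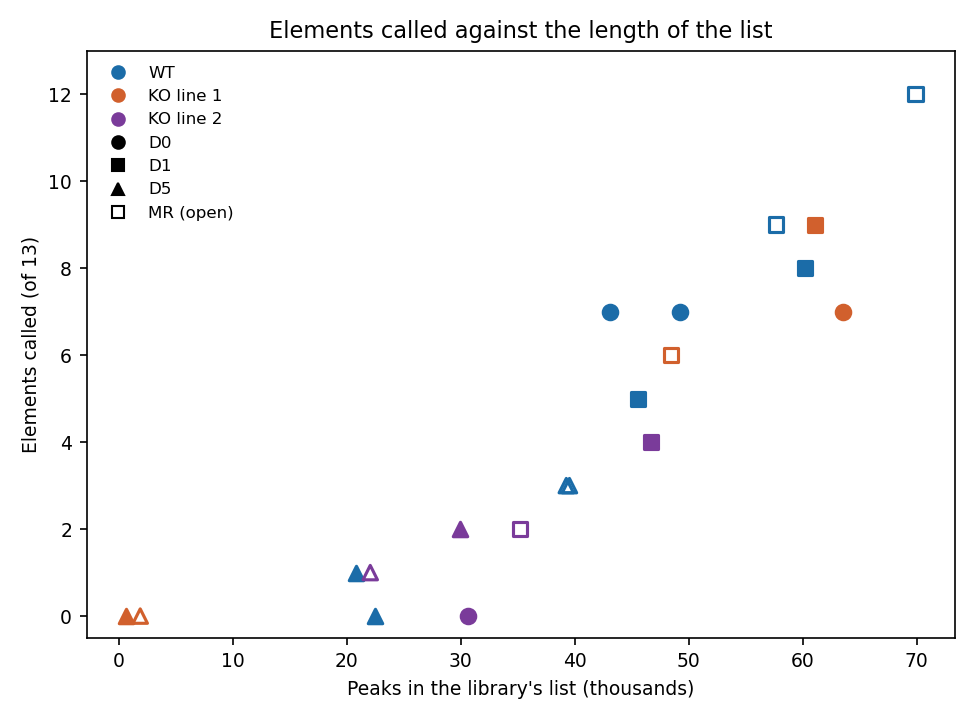
Number of the 13 elements called in each of 20 libraries against the number of peaks in its list (axis scaled as labelled), by genotype or line (colour), day (shape) and medium (open symbols for MR). The longest list, WT D1 MR replicate 1, held 12 elements, the next longest, KO D0 line 1, held 7, and KO D0 line 2 held 0.

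Differentiation was followed by comparing D5 with D1 within genotype and medium, in all 1296 arrangements. Element 10, present in 7 of the 8 lists of D1, was called less often at D5, in 1 of 8 (exact permutation p = 0.0139, Benjamini-Hochberg adjusted p = 0.0379 over 16153 regions). Of 4 testable elements it was the 1 that passed, against 66.2% of all tested regions called less often at D5 and 0.00619% called more often. Elements 1, 4 and 11 each had a difference of −0.625 and did not pass (exact permutation p = 0.0417, adjusted 0.0520). When KO libraries were paired by line, element 1 also passed (exact permutation p = 0.0417, adjusted 0.0490). Element 10 did not pass without the D5 libraries of KO line 1 (exact permutation p = 0.0370, adjusted 0.0801). In that setting 0 of 14311 testable regions passed.

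In WT the number of elements called was 7 and 7 at D0, 8 and 5 at D1 CTL, and 0 and 1 at D5 CTL. The D5 CTL lists were shorter, with 21.0% and 19.6% of all regions called against 55.4% and 42.2% at D1 CTL. Elements 7, 9 and 10 were in both WT D1 CTL and neither WT D5 CTL library (19% of all regions). In MR elements 1, 3, 7, 8 and 9 were in both D1 and neither D5 library (15.7% of all regions). The difference between D5 and D1 was below 0 for all 13 elements, with a median of −0.5, and for 87.5% of all regions, with a median of −0.25. D1 was not tested against D0, since the smallest two-sided exact p it allows is 0.0556.

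The MR and CTL libraries were compared with genotype and day held fixed. Element 5 was called in 7 of 8 MR and 3 of 8 CTL libraries (exact permutation p = 0.153, Benjamini-Hochberg adjusted p = 0.560), and element 13 in 5 of 8 and 2 of 8, a difference of 0.375 (exact permutation p = 0.278, adjusted 0.560). Neither of these 2 testable elements passed, and 0 of 3909 tested regions passed in either direction (0%), with 230 at an unadjusted p under 0.05. This test ignores that KO libraries pair by line across media. With KO libraries paired by line, the exact permutation p was 0.0833 for element 5 and 0.167 for element 13. In that setting neither element could reach 0.05. In WT at D5, CTL libraries held 0 and 1 elements and MR libraries 3 and 3. Elements 5 and 13 were in both WT D5 MR and neither WT D5 CTL library, a pattern of 11.9% of all regions, and the MR lists were longer, with 37.8% and 37.2% of all regions called.

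The windows of Myog and Myod1, drawn by the same rule, held 45 and 33 elements. In WT D5 CTL the Myog window had 25 and 21 of its elements called and the Myod1 window 16 and 17, while the Myf5 and Myf6 window had 0 and 1 of 13. In WT D0 the counts were 12 and 15 for Myog, 14 and 17 for Myod1, and 7 and 7 for Myf5 and Myf6. Over all WT libraries 57.3% of possible calls were made in the Myog window, 56.7% in the Myod1 window and 42.3% here, against 42.1% over all regions. In KO the shares were 14.4%, 19.4% and 23.8%, against 32.5%. The genotype test called 15 of 25 testable elements less often in KO in the Myog window, 7 of 14 in the Myod1 window and 1 of 4 here. These differences between windows were not tested.

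**Figure D4:**
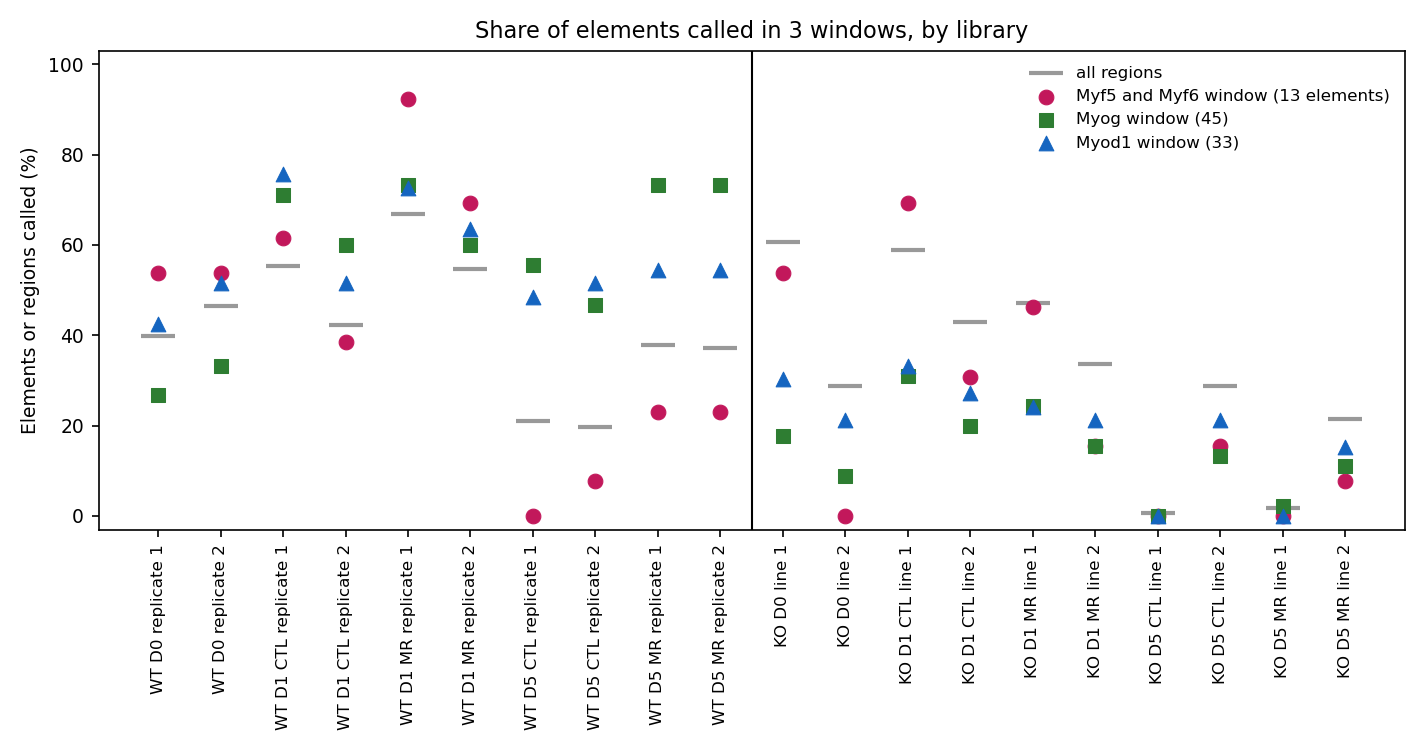
Percent of the elements of the Myf5 and Myf6, Myog and Myod1 windows (circles, squares and triangles) and of all regions (grey bars) called in each of the 20 libraries, WT left of the line and KO right. At WT D5 the circles lie below the grey bars and the squares and triangles above them.

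The other myogenic genes were counted from a list of 36, by gene-end peaks. For genotype 9 were testable, and 0 passed in either direction with adjustment over 1850 testable genes, of which 1.62% were called less often in KO and 0% more often. Without adjustment 7 of the list had p under 0.05, all with fewer calls in KO, against 830 of the 1850 testable genes, of which 769 had fewer and 61 more. The 7 were Pitx3, a homeodomain factor, Myog, the fusion genes Mymk and Mymx, creatine kinase gene Ckm, and the actin genes Acta1 and Actc1. Myog was called in 8 WT and 0 KO libraries (exact permutation p = 0.00154, adjusted 0.0522). Measured from the starts of the promoter table, which holds 22 of the list, Myog and Tnnt2 passed, each in 8 WT and 0 KO libraries (exact permutation p = 0.00154, adjusted 0.0450). By gene ends Tnnt2 had a peak in 10 WT and 8 KO libraries, so its result holds for these starts only. At these starts 4.72% of 1399 testable genes were called less often in KO and 0.429% more often. Myf5 did not pass there, with 7 WT and 2 KO libraries (exact permutation p = 0.0417, adjusted 0.0949), and Myf6, with 6 WT and 4 KO libraries at its gene ends, could not reach the threshold. Among the regulators upstream of the family, Pax3, Pax7, Eya2 and Meox2 had no gene-end peak in any library, and Six4 had one in all 18 longer lists. Eya1, a transcriptional coactivator, was the 1 gene of the list with more calls in KO, in 3 WT and 7 KO libraries. It did not pass (exact permutation p = 0.211, adjusted 0.389), and within 2 kb of a gene end it had a peak in 18 libraries. The inhibitors Id1, Id2, Id3 and Hes1 and the partners Tcf3 and Mef2d had a gene-end peak in all 18 longer lists, as Six4 did. The other inhibitors of the list had one in 0 to 15 libraries and the other partners in 0 to 13.

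Genes with a like pattern were sought among 16062 protein-coding genes with at least 10 regions within 150 kb and no overlap with this window. The share of a library's called regions that lay in the gene's window was compared with the same share for Myf5 and Myf6 across the 18 longer lists, and in each list both shares come from the same library and depth. The highest Spearman rho values were 0.946 for Hrh2, 0.926 for Ap3s1, 0.919 for Rbms3 and 0.913 for Tpbg, followed by 0.899 for Mbnl2, Snrk and Igf1r. For Myog and Myod1 rho was 0.0403 and −0.148.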

How the data were processed

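ATAC-seq was done in 20 C2C12 libraries of 10 groups. Per the labels' protocols, tagmented DNA was amplified with 10 PCR cycles and sequenced as read pairs. The genome build is GRCm38, per the submitters' processing notes; the aligner, filters, duplicate handling, read shift and peak caller are not given in the sources used here. Each deposited list holds peaks called per library, with a fold enrichment (a ratio), a score and −log10 p-values and q-values computed by the authors. The lowest −log10 q-value deposited was 1.00. Ranks within a list used the −log10 q-value.

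Peaks sharing at least 1 bp were merged into regions, and a region was called in a library that had a peak in it. Calls were compared by exact two-sided permutation within strata, with Benjamini-Hochberg adjustment over all regions whose calls allow p of 0.05 or lower. Tested on simulated data, every simulated loss had the right direction. In the simulations with 200 losses, all 200 also had an exact permutation p under 0.05 in each comparison. The simulated losses were thus strong ones, so their direction is no check on weaker losses, whose recovery was not tested. Even these strong losses passed adjustment only when a large part of the tested regions changed, and none passed when few did. In the simulated comparison of D5 with D1, where D5 lists are shorter, regions with no simulated loss made up a larger share of the calls than the threshold of 0.05 aims at, which bears on the call of element 10. The exact p-values are coarse, so an adjusted p depends on how many regions change over the genome, and a count of 0 does not show that no region changed. The planned rank test among regions shared by 18 libraries was not run, since none of the 13 elements is such a region. Gene names come from the RefSeq table of GRCm38.p6 and promoters from its promoter table, which holds Myf5 and not Myf6.

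KO libraries of the same line pair across conditions: differences between the lines correlated over regions by 0.258 to 0.396 between conditions at D0 and D1. WT replicates share only a number (−0.0296 to 0.0450). The main tests of genotype (regions and gene ends), of day and of medium all ignore the pairing of KO lines. The members, gene lists and tests were chosen with earlier results of these data known. Every element is described; full values are given for those at a gene end of Myf5 or Myf6, the 5 called in most libraries, those with the 3 lowest p per contrast and those that separate groups. Some genes of the myogenic list are not reported here by name. The promoter motif CANNTG and the promoter-table starts were added after seeing the data. Python 3.11.15, numpy 2.4.6, pandas 2.3.3 and scipy 1.17.1 were used.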

Additional observations from a re-analysis of the deposited data

Results flagged for a closer look

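At D1 the number of elements called moved in opposite directions with methionine restriction in WT and KO. In WT the MR libraries held 12 and 9 elements and the CTL libraries 8 and 5, a mean difference of 4. In KO line 1 went from 9 in CTL to 6 in MR and line 2 from 4 to 2, a mean difference of −2.5. The KO difference minus the WT difference was −6.5 elements, and it was not tested. The lists moved alike, from 60173 and 45545 to 69881 and 57676 peaks in WT, and from 61045 to 48460 in line 1 and from 46664 to 35201 in line 2. The part of list length in this difference was not tested.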

How the results depend on the processing

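The 1 element called less often in KO, element 9, also passed without the D5 libraries and with the replicate block on all numbers. It had no call at D5, so leaving D5 out could not change its unadjusted p. The block pairs each WT replicate with the KO line of the same number, and such samples share only that number. Neither setting is thus separate support. In these settings 1347 of 7182 and 5482 of 8234 testable regions passed. The count was 0 with 50% of the region covered, with −log10 q of 5 or more and with the strongest 20000 peaks per list. It was also 0 without the D5 libraries of KO line 1 (a setting added after seeing the data). Without WT replicate 1, WT replicate 2, KO line 1 or KO line 2 it was 0 each time (range 0 to 0). Over all testable regions the count was 0 too with 50% coverage and without WT replicate 1, WT replicate 2 or KO line 2. It was 613 of 12606 with −log10 q of 5 or more and 1691 of 10778 with the strongest 20000 peaks. It was 3279 of 13261 without KO line 1 and 2257 of 19646 without its D5 libraries. The adjusted p of element 9 in these leave-one-out settings was 0.0552 to 0.147. The count of 1 element called less often at D5, element 10, was also 1 with the replicate block on all numbers. It was 2 with KO libraries paired by line and ranged from 0 to 2 when WT replicate 1, WT replicate 2 or KO line 1 (each 0) or KO line 2 (2) was left out. It was 0 with 50% coverage, −log10 q of at least 5, the strongest 20000 peaks, or with both short KO line 1 lists left out. Over all testable regions 0 passed with the strongest 20000 peaks, without WT replicate 1 or WT replicate 2, and without the short lists. Of these regions, 8767 of 15203 passed with 50% coverage, 11559 of 13068 with −log10 q of at least 5 and 3512 of 3898 without KO line 1. The replicate block passed 5943 of 6792, pairing KO by line 11789 of 13856, and leaving out KO line 2 6799 of 7461. In WT alone no region can reach p of 0.05. For methionine restriction the count was 0 in every alternative run, the replicate block included; element 13 had a difference of −0.125 with −log10 q of at least 5, against 0.375. The window held 22 elements at 250 kb, 8 with −log10 q of at least 5 and 6 among the strongest 20000 peaks per list, against 13, and the other settings run were within 1.5 times. Of the myogenic list 1 gene passed within 2 kb and 2 from promoter-table starts (added after seeing the data), against 0. The causes were not tested. Of 88 recomputed values for single elements, 67 kept their direction and side of the threshold and 3 kept the side with a difference of 0. Of the rest, 15 no longer passed, 2 newly passed and 1 changed direction. All 15 were values of elements 9 and 10, the only elements that passed in the main run. These elements kept a pass only in the settings named above. Many of the other values could not reach the threshold in their setting, so their side of it was fixed. Of the 86 peaks 72.1% lay below percentile 50 of their lists, and the depth behind a missing call is unknown.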
